A study of Mus musculus with 12 samples.

Results

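The comparison set alveolar macrophages taken 7 days after liver resection against alveolar macrophages taken 1 day after it. It used the 3 arrays whose titles name day 7 and the 3 whose titles name day 1, which are 6 of the 12 arrays of the series, and the 22206 probe sets that are not controls, of 28846 in all. The day 7 and day 1 groups were male C57 Black mice with 70% of the liver removed; they differ by the time of sampling alone in the labels. Mice with an intact liver and mice sampled on day 3, with 3 arrays each, entered the estimate of the spread and are quoted as levels beside them. Cells were pulled from the lungs with magnetic beads carrying an antibody to Siglec-F, a surface lectin that eosinophils carry as well, and total RNA was hybridised to Clariom S mouse arrays. The titles call the replicates biological, and nothing in the labels says whether an array stands for 1 mouse or a pool, so the p-values measure the spread between these samples.

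Alveolar macrophages are the resident phagocytes of the airspaces. They depend on the growth factor GM-CSF and the nuclear receptor PPARγ, clear surfactant lipid and spent cells, and keep their number largely by dividing in place. After partial resection the remaining liver regrows by division of its own cells within days, while cytokines, growth factors and acute phase proteins appear in the blood. Day 7 against day 1 therefore sets a late time of this regrowth against an early one, seen from the lung.

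No probe set passed the test between day 7 and day 1. Of 22206 probe sets, limma called 0 at an adjusted p under 0.05, which is 0% of those tested, and the smallest adjusted p was 0.573. An unadjusted p under 0.05 was reached by 846 probe sets with a higher signal at day 7 (3.81% of those tested) and by 651 with a lower one (2.93%), 1497 in all, where chance alone gives 1110.3. The 3 day 7 arrays all lay above the 3 day 1 arrays for 1010 probe sets (4.55%) and all below them for 1035 (4.66%). Chance alone separates 3 arrays from 3, in either direction, with a probability of 0.1, and these shares together do not exceed it. The median log2 difference over all tested probe sets was 0.00206, the median standard error was 0.22, 140 probe sets differed by more than 1 and 22 by less than -1. Every gene below is therefore given by its values, none passed the test, and an exact permutation test of 3 arrays against 3 cannot go below a p of 0.1. In material of this kind, fewer cells of a type and less RNA per cell cannot be told apart.

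Features of particular arrays touch these values. The second day 1 replicate stood apart: on the first principal component of the 12 arrays, with 34.3% of the variance, it lay at 95.4 and the others between -20.1 and 17.4, and on it exon controls were told from intron controls least well of the 6 arrays (area under the curve 0.809, against 0.837 to 0.880 at day 7 and 0.871 and 0.872 on the other day 1 arrays). The labelling control dap read 7.77 and 6.47 on day 7 replicates 2 and 3, against 2.28 to 2.89 at day 1. Among the 5409 probe sets above the 95% limit of the intron controls on at least 3 of the 6 arrays, those with an unadjusted p under 0.05 numbered 275 higher and 52 lower at day 7, with a median difference of 0.13. With the second day 1 replicate also left out they numbered 116 higher and 138 lower, with a median of -0.06, and 0 were called. The main gene groups are therefore also given without that array. Some are also given without the 3 arrays of the series that carry dap; that setting leaves 1 day 7 array, whose spread is assumed to be that of the other groups.

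The cells carried defining transcripts of alveolar macrophages at both times. Siglecf, Pparg, Mrc1, Car4 and Marco lay above the intron limit on all 6 arrays. All 23 measured genes of the identity list lay above it on at least 3 of the 6, a count that does not separate day 7 from day 1. Siglecf itself, the gene of the antigen used for the sort, read 8.89, 8.54 and 8.77 at day 7 and 8.61, 7.89 and 8.50 at day 1. Pparg read 8.93, 8.55 and 8.94 at day 7 and 8.90, 9.27 and 8.85 at day 1, and the mannose receptor gene Mrc1 read 10.06, 10.19 and 10.40 at day 7 and 10.24, 10.46 and 10.07 at day 1. These 3 genes overlapped between the groups, with differences of 0.40, -0.20 and -0.04. Car4, a carbonic anhydrase gene used to mark these cells, read 10.38, 9.46 and 10.10 at day 7 and 9.49, 7.85 and 9.74 at day 1, a difference of 0.95 that was 0.37 without the second day 1 replicate. The scavenger receptor gene Marco overlapped as well, at 7.97, 7.47 and 8.38 at day 7 and 8.11, 6.98 and 7.62 at day 1.

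**Figure D1:**
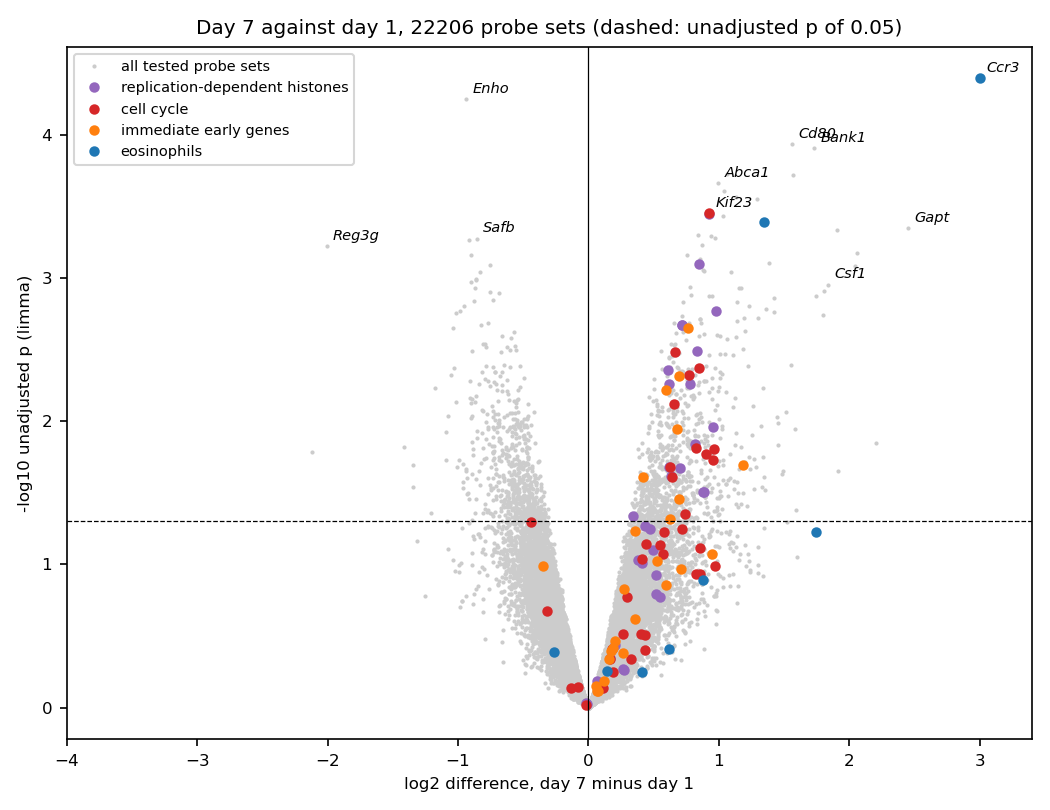
Day 7 minus day 1 on the log2 scale (x axis, positive where day 7 is higher) against the unadjusted p of limma on a −log10 scale (y axis), 1 point a probe set, with 4 gene lists in colour and a dashed line at an unadjusted p of 0.05. No probe set was called, and the named genes with the smallest p, among them Ccr3, Cd80, Abca1 and Kif23 on the right and Enho and Safb on the left, all have an adjusted p of 0.573.

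Genes of cell division lay higher at day 7 than at day 1 as a group. Of 37 measured genes of the cell cycle list, 32 had a positive difference and 5 a negative one, with a median of 0.57. An unadjusted p under 0.05 was reached by 12 of them, all higher at day 7, against 3.81% of all probe sets in that direction. On every day 7 array 12 lay higher and 1 lower, against 4.55% and 4.66% of all probe sets. Without the second day 1 replicate 30 of 37 were positive, with a median of 0.42. At an unadjusted p under 0.05 7 were then higher, against 576 of all 22206 probe sets. Without the first day 7 replicate the median was 0.32 and 6 were higher at that p, against 880 of all. Without the dap arrays 36 of 37 were positive, with a median of 0.98. Ribosomal protein and respiratory chain genes had medians of 0.26 and 0.34 there, and MHC class II and classical activation genes 0.68 and 0.73. Of the 47 lists, 37 had a median above 0 in that setting. It keeps only the first day 7 replicate, the highest of the 12 arrays for the cell cycle list. Most of these signals were dim, since 7 of the 37 lay above the intron limit on at least 3 of the 6 arrays.

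The part of the list that works in mitosis and cytokinesis stood higher than the part that works in DNA replication, in counts and in median. Of 23 mitotic genes 21 were positive, with a median of 0.64 and 10 at an unadjusted p under 0.05. Of 14 genes of S phase 11 were positive, with a median of 0.38 and 2 at that p. Without the second day 1 replicate the medians were 0.48 and 0.12. The difference between the parts was not tested.

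Kif23, a kinesin of the central spindle that is needed to split daughter cells, read 6.54, 6.31 and 6.43 at day 7 and 5.66, 5.43 and 5.43 at day 1. All 3 day 7 arrays lay above all 3 day 1 arrays, and all 6 above the intron limit. Its difference was 0.92 ± 0.19 (SE, limma, adjusted p 0.573), with 0.78 to 1.04 over all alternatives, and it averaged 5.71 on day 3 and 5.85 in intact mice. Prc1, which bundles the microtubules to which that kinesin binds, read 4.30, 3.74 and 4.32 at day 7 and 3.15, 3.13 and 3.52 at day 1, again without overlap. Ccnb2, a cyclin that drives entry into mitosis, read 6.12, 5.56 and 5.46 at day 7 and 5.01, 4.80 and 5.02 at day 1. The first day 7 replicate was the highest for it, and the groups did not overlap.

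Mki67, the gene of the proliferation marker Ki-67, read 7.88, 7.55 and 7.49 at day 7 and 6.74, 6.44 and 6.86 at day 1, a difference of 0.96 ± 0.34. Nuf2, a part of the kinetochore, read 4.49, 4.48 and 4.10 at day 7 and 3.55, 3.16 and 3.24 at day 1. Neither overlapped between the groups. Aurkb, the kinase of the chromosomal passenger complex, read 4.89, 4.05 and 4.68 at day 7 and 3.98, 3.85 and 3.92 at day 1, and Birc5, its partner survivin, read 4.61, 4.49 and 4.65 at day 7 and 4.10, 3.01 and 4.16 at day 1. Ccne2, a cyclin of the entry into S phase, read 3.14, 2.53 and 2.66 at day 7 and 2.08, 2.16 and 2.11 at day 1. Cep192, which builds the mitotic centrosome, read 5.68, 5.03 and 5.45 at day 7 and 4.55, 4.50 and 4.20 at day 1. An exception was Cdk1, the kinase bound by mitotic cyclins, which was dim and read 2.66, 2.16 and 2.57 at day 7 and 3.18, 2.74 and 2.79 at day 1, with day 7 below day 1 on every array. Prc1, Nuf2, Aurkb, Birc5, Ccne2 and Cdk1 lay above the intron limit on 0 of the 6 arrays.

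Averaged over the list, the cell cycle genes read 4.97, 4.26 and 4.35 on the day 7 arrays and 4.16, 3.69 and 4.25 on the day 1 arrays. The day 7 arrays were the higher ones, but the lowest of them (4.26) and the highest day 1 array (4.25) all but met, and the first day 7 replicate was the highest of the 12 arrays. The same average was 4.61, 4.44 and 4.13 in intact mice and 4.04, 3.91 and 4.03 on day 3. Among markers of other cells that could divide, the lists of T and NK cells and of B and plasma cells had medians of -0.10 and 0.01. Of these genes only 2 of 21 and 1 of 14 lay above the intron limit on at least 3 of the 6 arrays. The part of these cells in the result was not tested.

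**Figure D2:**
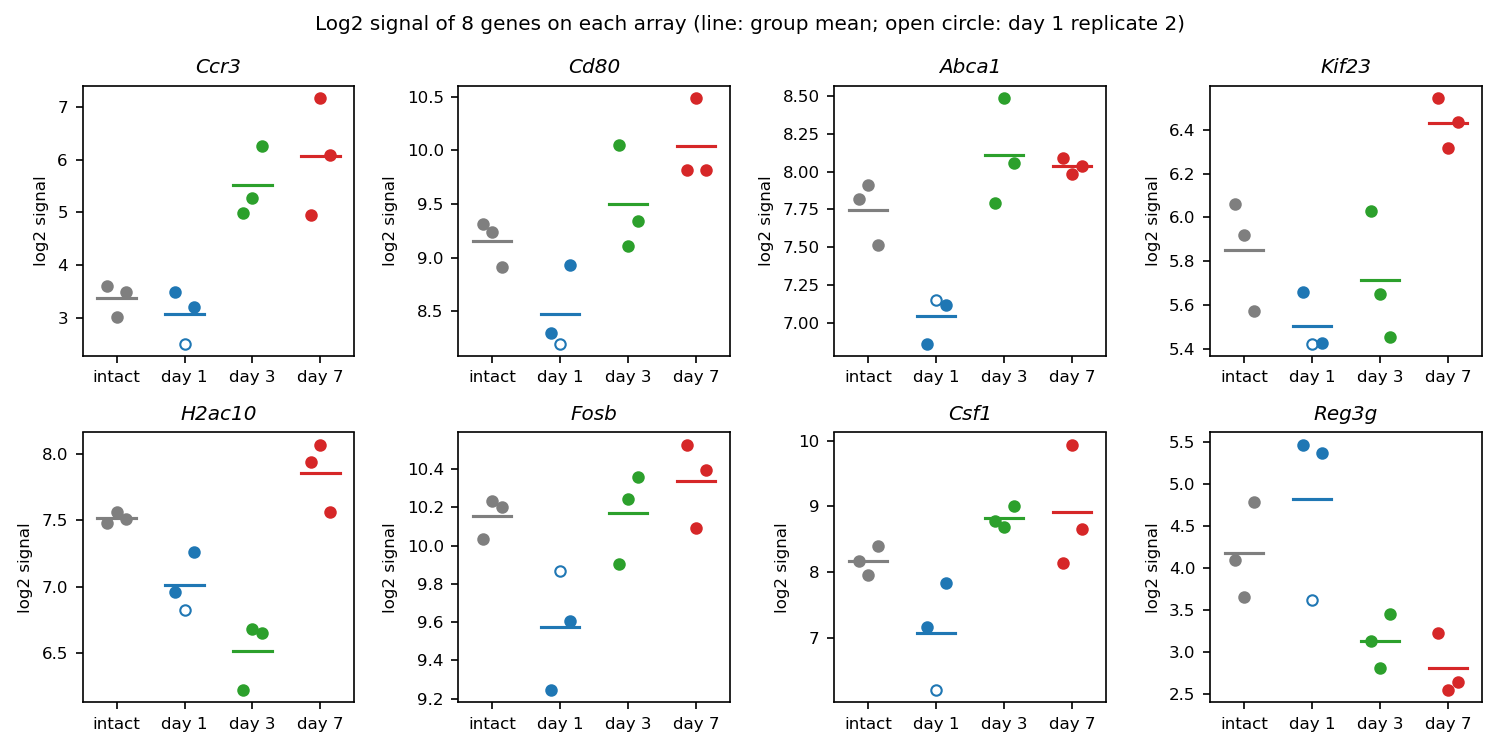
Log2 signal (y axis) of 8 genes on each of the 12 arrays, 1 panel a gene, in time order from intact mice to day 1, day 3 and day 7 (x axis); each point is 1 array, each line a group mean, and the open circle is the second day 1 replicate. The 3 day 7 points of Kif23 lie between 6.31 and 6.54, above the day 1 points at 5.43 to 5.66, and Abca1 has its lowest group at day 1.

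The replication-dependent histone genes, which are transcribed in S phase to package new DNA, were mostly higher at day 7 as well. Of 33 measured genes 31 were positive and 2 negative, with a median of 0.55. An unadjusted p under 0.05 was reached by 17, all higher at day 7, against 3.81% of all probe sets. On every day 7 array 10 lay higher, against 4.55% of all probe sets. Leaving out the second day 1 replicate, 27 were positive, with a median of 0.41, and 11 reached that p (576 of all 22206 probe sets). Without the first day 7 replicate 9 reached it (880 of all). Without the dap arrays, a setting that keeps only the first day 7 replicate, the median was 0.84. Of the 33 genes 21 lay above the intron limit on at least 3 of the 6 arrays. Copies of a histone class share much of their coding sequence, so probe sets of different copies may read the same transcripts: those of H3c14 and H3c15 held identical values on every array.

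All 5 histone classes had positive medians. These were 0.60 for the linker histones H1 (4 of 4 positive), 0.83 for H2A (4 of 5), 0.51 for H2B (6 of 6), 0.62 for H3 (10 of 10) and 0.41 for H4 (7 of 8). The linker histone gene H1f3 read 5.34, 5.74 and 5.41 at day 7 and 4.70, 4.60 and 4.41 at day 1, a difference of 0.93 ± 0.19 with no overlap. H2ac10 read 7.94, 8.07 and 7.57 at day 7 and 6.96, 6.82 and 7.26 at day 1, a difference of 0.84 ± 0.19, and averaged 6.52 on day 3 and 7.52 in intact mice. For H2ac10 the day 7 arrays lay above the day 1 arrays, and day 7 averaged 7.86. H3c14 and H3c15 read 8.40, 8.27 and 7.88 at day 7 and 7.62, 7.22 and 7.56 at day 1. H2ac4 read 7.52, 7.13 and 6.77 at day 7 and 6.32, 5.94 and 6.66 at day 1, and H1f1 read 4.91, 4.15 and 4.29 at day 7 and 3.37, 3.10 and 3.96 at day 1; neither overlapped.

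Averaged over the histone list, the day 7 arrays read 6.45, 6.34 and 6.0 and the day 1 arrays 5.91, 5.35 and 5.92, without overlap. The intact arrays read 6.21, 6.24 and 6.14 and the day 3 arrays 5.19, 5.62 and 5.47. In time order the list thus averaged lower at day 1 and day 3 than in intact mice, with day 7 near the intact level.

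**Figure D3:**
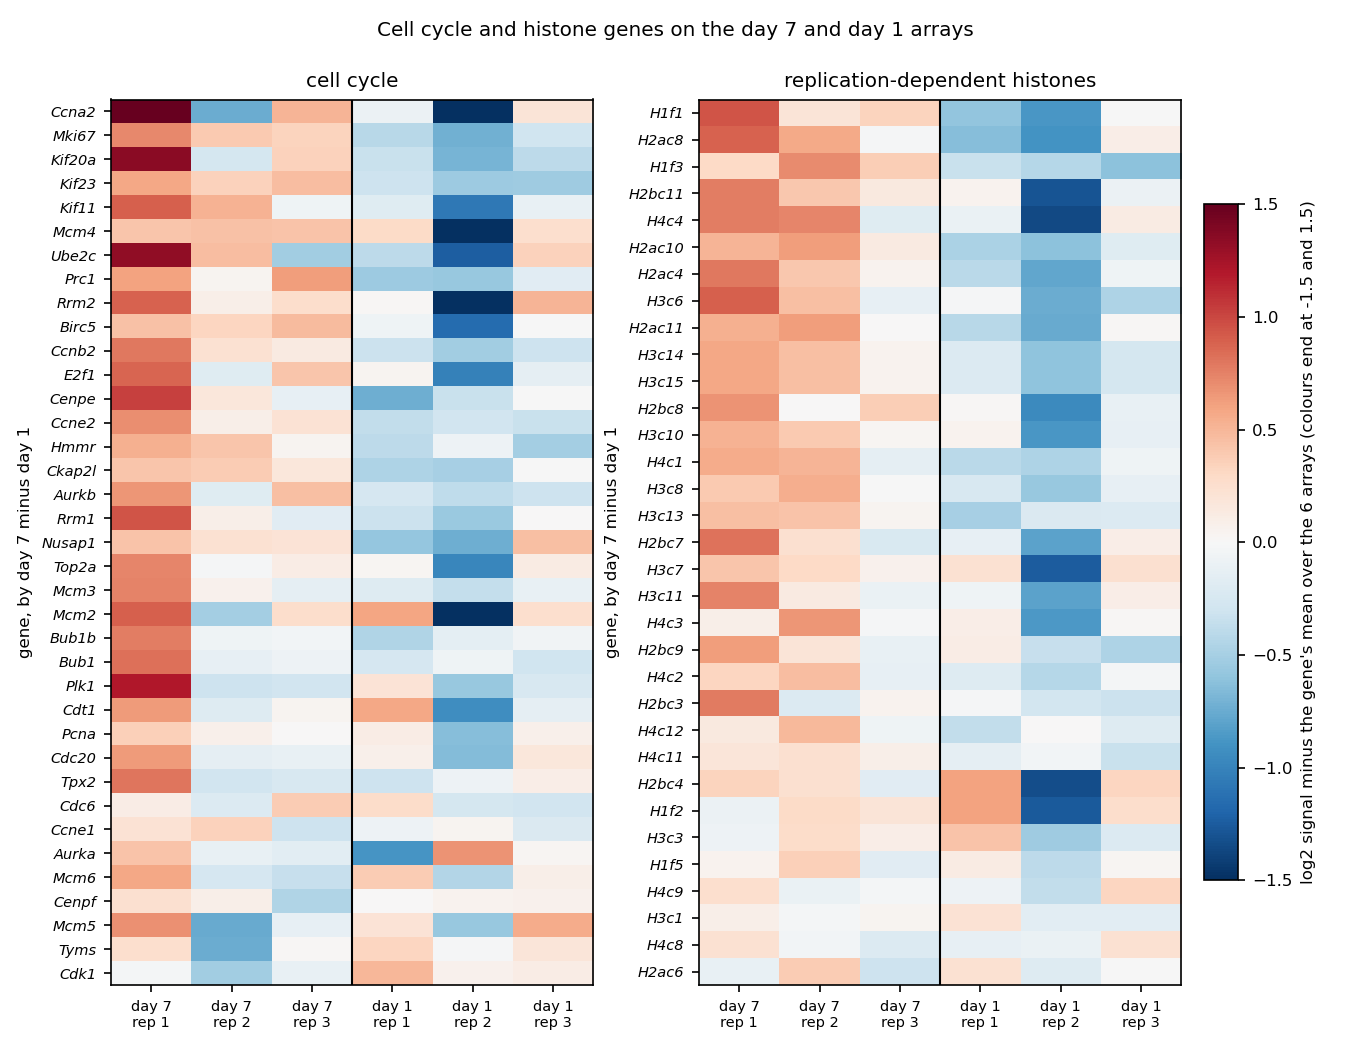
Log2 signal of the cell cycle genes (left panel) and histone genes (right panel) on the day 7 arrays and the day 1 arrays (columns, day 7 on the left), 1 row a gene, in order of the difference; colours give log2 units from the gene's mean over the 6 arrays. The first day 7 column is the reddest and the second day 1 column the bluest; 32 of 37 cell cycle genes and 31 of 33 histone genes have a positive difference, and Cdk1 lies at the bottom of its panel.

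Because most cell cycle and histone genes differ in 1 direction, the starts of 5 of them are shown, to let the promoter elements known from each class be seen. Many mitotic genes carry a cell cycle homology region, searched here as TTTGAA, together with CCAAT boxes, and many histone genes carry a CCAAT box and a TATA box, searched as TATAAA. Each line runs 5′ to 3′ in the direction of transcription, from 160 bases before the RefSeq transcription start to 30 after it, in GRCm38.p6; capitals mark the searched letters on either strand, so that ATTGG and TTTATA are the reverse forms of CCAAT and TATAAA. Kif23 lies at chr9:61946770-61946959 on the minus strand, Prc1 at chr7:80294291-80294480 on the plus strand (the first of its 2 annotated starts), Ccnb2 at chr9:70421525-70421714 on the minus strand, H1f3 at chr13:23554872-23555061 on the plus strand and H2ac10 at chr13:23533715-23533904 on the plus strand.
Kif23: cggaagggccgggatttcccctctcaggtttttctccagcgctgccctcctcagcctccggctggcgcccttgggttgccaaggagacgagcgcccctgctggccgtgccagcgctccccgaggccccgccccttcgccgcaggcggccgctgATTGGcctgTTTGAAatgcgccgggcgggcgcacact
Prc1: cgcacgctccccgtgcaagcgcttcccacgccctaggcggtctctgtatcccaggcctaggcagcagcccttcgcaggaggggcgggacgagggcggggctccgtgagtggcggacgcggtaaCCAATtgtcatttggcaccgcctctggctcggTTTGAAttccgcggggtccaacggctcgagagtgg
Ccnb2: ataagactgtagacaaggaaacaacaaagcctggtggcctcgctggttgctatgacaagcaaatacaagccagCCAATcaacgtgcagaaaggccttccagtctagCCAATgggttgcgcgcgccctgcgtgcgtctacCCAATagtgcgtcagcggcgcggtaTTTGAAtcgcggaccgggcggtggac
H1f3: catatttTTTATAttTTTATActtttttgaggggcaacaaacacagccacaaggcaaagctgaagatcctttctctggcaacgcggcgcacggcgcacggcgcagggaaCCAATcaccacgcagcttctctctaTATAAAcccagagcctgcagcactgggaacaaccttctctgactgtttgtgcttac
H2ac10: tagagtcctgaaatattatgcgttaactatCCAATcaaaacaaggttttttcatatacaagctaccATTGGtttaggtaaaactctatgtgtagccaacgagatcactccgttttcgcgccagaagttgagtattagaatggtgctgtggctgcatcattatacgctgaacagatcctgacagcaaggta

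In Kif23 the reverse CCAAT box lies just before the start and the homology region just after it. In Prc1 the CCAAT box lies before the start and the homology region spans it. Ccnb2 has 3 CCAAT boxes before the start and its homology region just after it. H1f3 has a CCAAT box followed by TATAAA, with a pair of TTTATA further upstream, and H2ac10 has CCAAT boxes on both strands with no TATAAA in the stretch. Over the windows of 300 bases that RefSeq gives for each gene (250 before the start to 50 after it), 31 of the 37 cell cycle genes had a window, and 16 of them (51.6%) held both TTTGAA and CCAAT in 1 window, on either strand. Among all 27025 genes with a window 7.97% held both, 20.2% held TTTGAA and 41.1% held CCAAT. Of the 9 cell cycle genes with a window and an unadjusted p under 0.05 7 held both, as did 9 of the other 22. The pair was not limited to the cell cycle list, since 11 of 30 histone genes with a window (36.7%) also held both. Of 30 histone genes with a window 25 (83.3%) held CCAAT and 16 (53.3%) held TATAAA, against 15.7% of all genes for TATAAA, while 0 of the 31 cell cycle genes held it. The searched letters do not overlap one another, and a match describes the letters and is not a measured site.

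**Figure D4:**
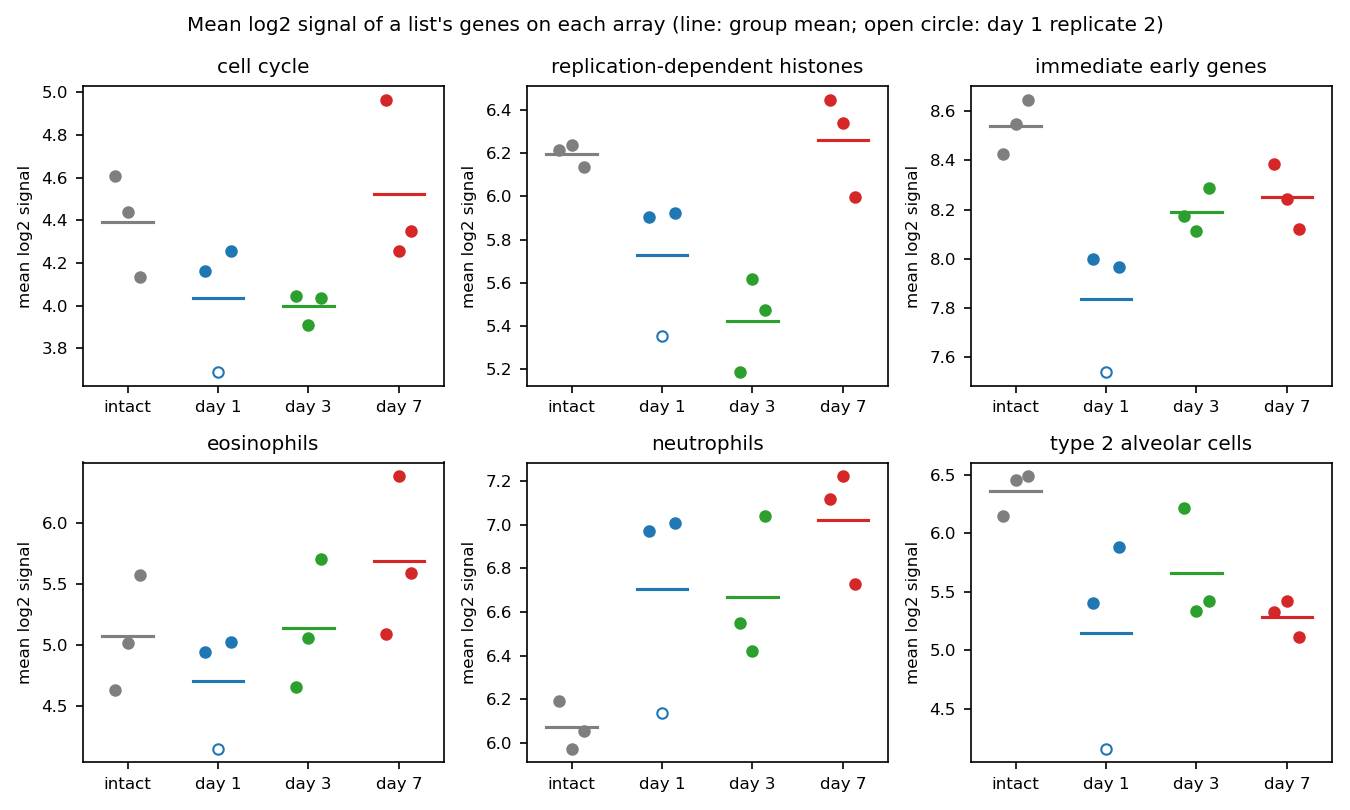
Mean log2 signal of the genes of 6 lists (y axis, 1 panel a list) on each array, in time order from intact mice to day 1, day 3 and day 7 (x axis); each point is 1 array, each line a group mean, and the open circle is the second day 1 replicate. Histone genes average 6.0 to 6.45 at day 7 and 5.35 to 5.92 at day 1, and the open circle is the lowest day 1 point in all 6 panels.

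Immediate early genes, which code for transcription factors and feedback regulators that respond to a stimulus within minutes, were higher at day 7 in nearly the whole list. Of 25 measured genes 24 were positive, with a median of 0.36. An unadjusted p under 0.05 was reached by 8, all higher at day 7, against 3.81% of all probe sets. On every day 7 array 7 lay higher, against 4.55% of all probe sets. When the second day 1 replicate was left out, 22 were positive and 5 reached that p (576 of all 22206 probe sets). The median was then 0.17, so the size of the shift rested in large part on that array. The list averaged 8.43, 8.55 and 8.65 in intact mice, 8.0, 7.54 and 7.97 at day 1, 8.17, 8.11 and 8.29 on day 3 and 8.39, 8.24 and 8.12 at day 7, so that day 7 lay above day 1 and below the intact arrays.

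Fosb, a member of the AP-1 family, read 10.53, 10.09 and 10.40 at day 7 and 9.24, 9.87 and 9.61 at day 1, a difference of 0.77 ± 0.20 that was 0.91 without the second day 1 replicate. Egr1 read 9.99, 10.27 and 10.08 at day 7 and 9.41, 9.65 and 9.40 at day 1, and Btg2, an antiproliferative gene, read 8.32, 8.42 and 8.46 at day 7 and 7.79, 7.40 and 7.94 at day 1. None of these 3 overlapped, and for Fosb and Egr1 the second day 1 replicate was the highest of its group. Fos read 9.52, 9.35 and 9.53 at day 7 and 9.20, 8.79 and 9.17 at day 1, and Fosl2 read 8.42, 8.14 and 8.36 at day 7 and 7.89, 7.41 and 7.83 at day 1. The orphan nuclear receptor gene Nr4a3 read 9.65, 9.42 and 9.07 at day 7 and 9.07, 8.36 and 8.66 at day 1, where the third day 7 replicate met the first day 1 replicate. Its relative Nr4a2 read 7.50, 6.14 and 5.92 at day 7 and 5.51, 4.49 and 6.0 at day 1, and Myc read 7.24, 6.13 and 6.08 at day 7 and 5.97, 5.57 and 5.84 at day 1; in both the first day 7 replicate stood above the rest. By family, 7 of 8 FOS and JUN genes were positive with a median of 0.30, 6 of 6 EGR and KLF genes with 0.16 and 3 of 3 NR4A genes with 0.68; without the second day 1 replicate these medians were 0.10, 0.21 and 0.51.

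The gene with the smallest p was Ccr3, the eotaxin receptor of eosinophils. It read 4.96, 7.16 and 6.10 at day 7 and 3.49, 2.50 and 3.21 at day 1, a difference of 3.00 ± 0.48 (SE, limma, adjusted p 0.573). The groups did not overlap, but the day 7 arrays spread widely, with the dap arrays on top. On day 3 Ccr3 read 4.98 on replicate 1, which carries dap, and 5.28 and 6.26 on the others. Without the dap arrays the difference was 1.89, and without the second day 1 replicate 2.72; Ccr3 averaged 3.37 in intact mice, 3.07 at day 1, 5.51 on day 3 and 6.07 at day 7. Il5ra, the receptor subunit for interleukin 5, read 3.13, 4.39 and 3.80 at day 7 and 2.57, 2.11 and 2.60 at day 1, a difference of 1.35 ± 0.28 that was 0.70 without the dap arrays. It averaged 2.53 in intact mice and 4.10 on day 3, with 3.92 on the day 3 dap array and 3.92 and 4.47 on the others. Both signals were dim: Ccr3 lay above the intron limit on 2 of the 6 arrays and Il5ra on 0, so the sizes of their differences are uncertain.

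The genes of eosinophil granule proteins gave smaller differences than these receptors. Over all arrays 3 of 4 were positive, and each overlapped between the groups. Prg2, the major basic protein, read 6.41, 8.51 and 6.83 at day 7 and 7.00, 5.91 and 7.00 at day 1, and Epx, the peroxidase, read 3.89, 5.85 and 4.17 at day 7 and 4.75, 2.97 and 4.96 at day 1. In both the second day 7 replicate was the highest and the second day 1 replicate the lowest. Of the other arrays those of day 7 lay below those of day 1, so the groups overlapped. Ear6, an eosinophil-associated ribonuclease, read 8.35, 8.38 and 7.45 at day 7 and 8.32, 8.78 and 7.86 at day 1, and Prg3 read 2.64, 2.35 and 2.86 at day 7 and 2.10, 2.89 and 2.43 at day 1. The 4 granule genes had a median of 0.28 (-0.10 without the dap arrays), and the 3 receptor genes one of 1.75 (0.98 without them). The remaining receptor gene, Adgre4, read 5.93, 7.27 and 6.89 at day 7 and 6.18, 2.16 and 6.50 at day 1, so that its difference of 1.75 was 0.35 without the second day 1 replicate. The lipoxygenase gene Alox15 read 5.44, 7.18 and 6.65 at day 7 and 5.13, 5.85 and 5.65 at day 1. Over all 8 eosinophil markers the median was 0.75, with 7 positive, and 0.10 without the dap arrays; on each array the list averaged 5.09, 6.39 and 5.59 at day 7 and 4.94, 4.15 and 5.03 at day 1. Basophils also carry Ccr3, and the list of basophil and mast cell markers had a median of -0.04, with 6 of 13 positive. The part of these cells, and of the dap control, in the Ccr3 and Il5ra values was not tested.

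**Figure D5:**
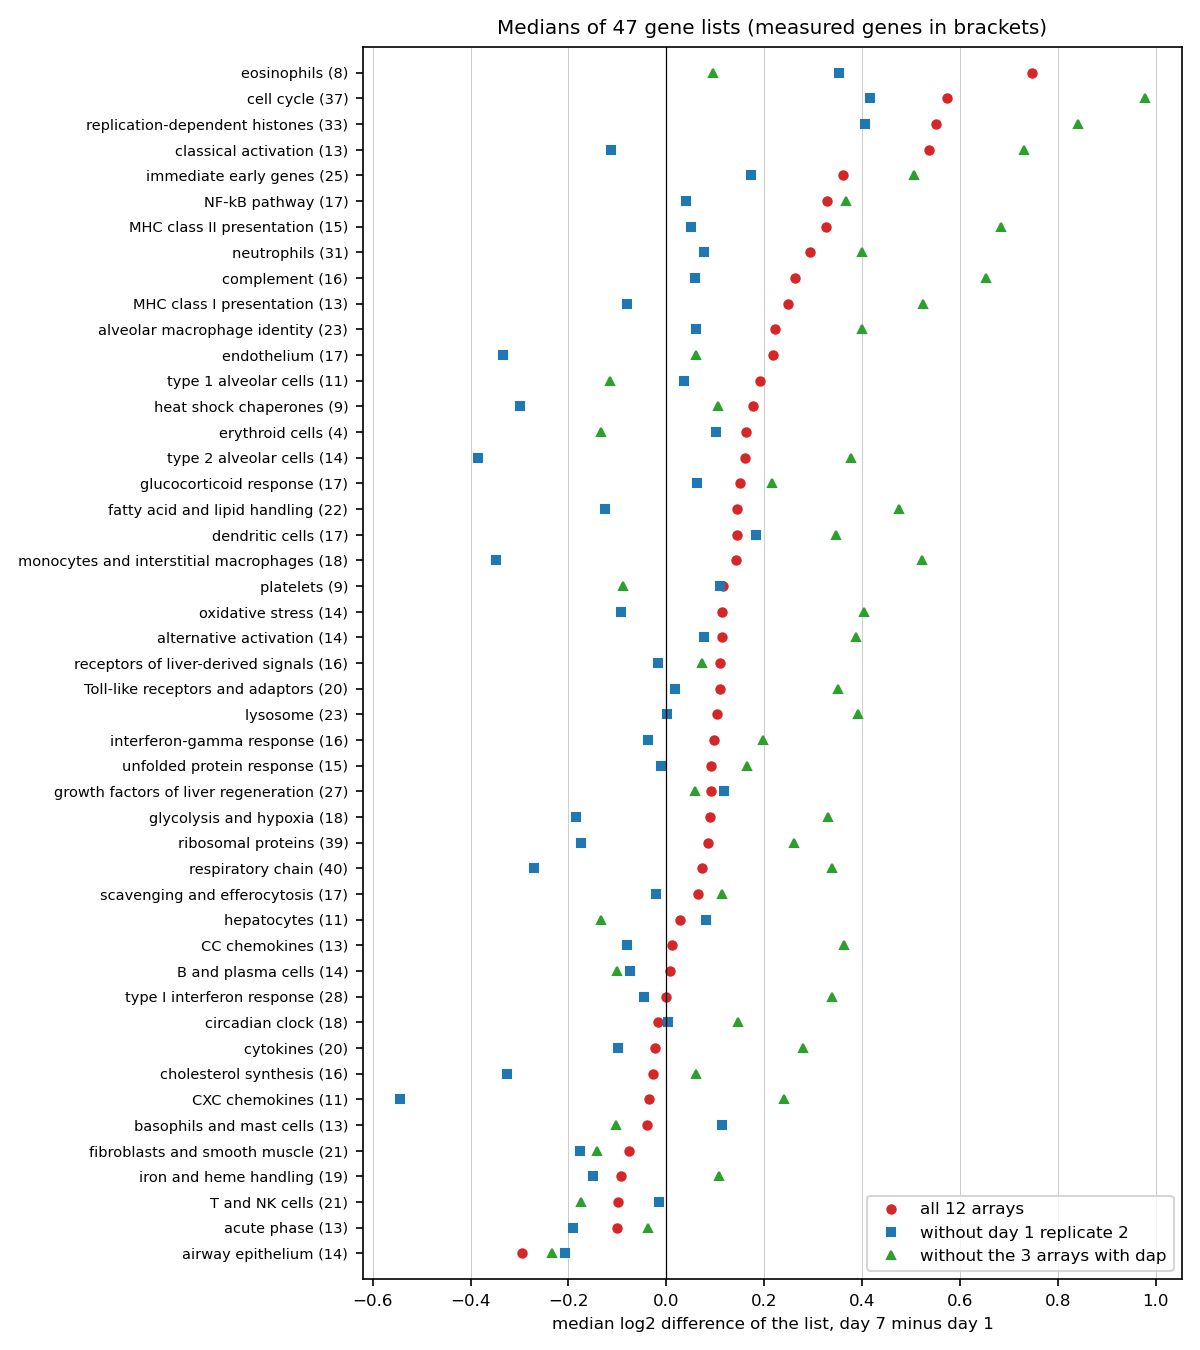
Median day 7 minus day 1 difference on the log2 scale (x axis) of each gene list (rows, with its number of measured genes), over all arrays (circles), without the second day 1 replicate (squares) and without the dap arrays (triangles). Eosinophil, cell cycle and histone lists have the largest medians over all arrays (0.75, 0.57 and 0.55), and 19 of the 47 lists change sign without that replicate.

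Cd80, the ligand of the T cell receptors CD28 and CTLA-4, was the bright gene with the smallest p. It read 9.82, 10.48 and 9.82 at day 7 and 8.30, 8.20 and 8.93 at day 1, a difference of 1.56 ± 0.28 (SE, limma, adjusted p 0.573) without overlap. It kept 1.42 without the second day 1 replicate and 1.34 without the dap arrays, and averaged 9.16 in intact mice, 8.48 at day 1, 9.50 on day 3 and 10.04 at day 7. Csf1, the growth factor M-CSF, read 8.13, 9.94 and 8.66 at day 7 and 7.17, 6.20 and 7.83 at day 1, a difference of 1.84 ± 0.44; its second replicates were the extremes of both groups, and it was 1.06 without the dap arrays. Gapt, an adaptor protein of blood cells, read 6.14, 6.90 and 6.42 at day 7 and 4.79, 2.40 and 4.92 at day 1, and its difference of 2.45 was 1.63 without the second day 1 replicate. Gpr65, a receptor that senses acidity, read 6.04, 6.02 and 5.92 at day 7 and 4.57, 4.27 and 5.82 at day 1. C3ar1, the receptor of complement fragment C3a, read 6.46, 6.90 and 6.34 at day 7 and 5.60, 3.97 and 5.78 at day 1, without overlap, with 1.45 over all arrays and 0.88 without the second day 1 replicate.

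The receptor of GM-CSF, on which alveolar macrophages depend, gave smaller differences. Its α subunit Csf2ra read 9.62, 9.01 and 9.34 at day 7 and 8.82, 8.12 and 8.89 at day 1, and its β subunit Csf2rb read 8.62, 8.41 and 8.26 at day 7 and 7.75, 7.79 and 8.10 at day 1. Both lay higher on every day 7 array, with differences of 0.47 and 0.50 without the second day 1 replicate. The integrin gene Itgax, which codes for CD11c, read 9.33, 8.57 and 8.97 at day 7 and 8.51, 7.20 and 8.33 at day 1. Over the identity list 15 of 23 genes were positive, with a median of 0.22, and without the second day 1 replicate the median was 0.06. Over all arrays 4 were higher at an unadjusted p under 0.05, against 3.81% of all probe sets.

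Of 22 measured genes of lipid handling 13 were positive. An unadjusted p under 0.05 was reached by 4 (against 3.81% of all probe sets), all higher at day 7: Abca1, Mylip, Scd1 and Elovl6. Abca1, the transporter that exports cholesterol and a known target of the oxysterol receptors LXR, read 8.09, 7.99 and 8.04 at day 7 and 6.86, 7.15 and 7.12 at day 1, a difference of 0.99 ± 0.19 (SE, limma, adjusted p 0.573). The arrays of each group lay close together and far from those of the other, and the difference was 1.05 both without the second day 1 replicate and without the dap arrays. Abca1 averaged 7.75 in intact mice, 7.04 at day 1, 8.11 on day 3 and 8.04 at day 7, so day 1 was the low point of the 4 groups. Mylip, the ligase that degrades the LDL receptor and also an LXR target, read 7.77, 7.07 and 7.49 at day 7 and 6.55, 6.72 and 6.42 at day 1, a difference of 0.88 ± 0.20 without overlap. Scd1, a desaturase of fatty acids, read 6.51, 6.47 and 6.16 at day 7 and 4.71, 4.93 and 6.11 at day 1, where the third day 1 replicate came close to the day 7 arrays. The elongase gene Elovl6 read 5.58, 4.38 and 5.36 at day 7 and 4.13, 2.96 and 4.82 at day 1, with overlap. The median of the list was 0.14 over all arrays, -0.12 without the second day 1 replicate and 0.48 without the dap arrays. In cholesterol synthesis 7 of 16 were positive, with a median of -0.03, and without the second day 1 replicate 2 of 16, with a median of -0.33. Insig1, which holds back that pathway, read 7.17, 6.56 and 7.19 at day 7 and 8.06, 7.03 and 7.81 at day 1. The receptor gene Scarb1, which takes up cholesterol from HDL, read 7.12, 6.28 and 6.74 at day 7 and 7.51, 6.89 and 7.47 at day 1. Both groups overlapped for each of these 2 genes.

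Among the other genes with the smallest p and a higher signal at day 7 were Bank1, a B cell scaffold protein (4.77, 5.63 and 5.94 at day 7, 3.68, 3.35 and 4.13 at day 1), and Padi4, a citrullinating enzyme best known from neutrophils (3.60, 3.38 and 3.97 at day 7, 2.52, 2.41 and 2.61 at day 1). Syne1, a protein of the nuclear envelope, read 5.58, 7.16 and 6.42 at day 7 and 4.62, 3.60 and 5.23 at day 1, and Ston2, an endocytic adaptor, read 4.92, 5.54 and 4.60 at day 7 and 3.82, 3.98 and 3.40 at day 1. Erc2 and Nicn1 completed the 15 genes named in this direction, with differences of 0.94 and 1.03. Differences of the 15 ran between 0.92 and 3.00; 3 of them (Cd80, Abca1 and Kif23) lay above the intron limit on all 6 arrays and 5 on no array. All 15 kept their sign in every alternative. They were chosen for groups without overlap, so leaving out arrays could not change it.

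The genes lower at day 7 were dimmer. The 15 named by the same rule had differences between -2.01 and -0.75 and adjusted p values of 0.573 to 0.616 (limma). Of these, 11 lay above the intron limit on no array and 0 on all 6. Each kept its sign in every alternative, which the choice of groups without overlap fixes where arrays are left out. Enho, the gene of the peptide adropin, read 3.04, 2.79 and 3.10 at day 7 and 4.12, 3.91 and 3.71 at day 1, a difference of -0.94 ± 0.16. Safb, a nuclear matrix protein that binds RNA, read 5.21, 5.13 and 5.37 at day 7 and 6.16, 6.28 and 5.83 at day 1, a difference of -0.85 ± 0.18. Il27, which codes for a subunit of interleukin 27, read 2.96, 3.05 and 3.38 at day 7 and 3.90, 3.71 and 4.04 at day 1. Day 7 lay below day 1 on every array for these 3. The others were Pcp2, Palm3, Zfp786, Tsx, Stk39, Mdk, Ndufaf8, Zfp821, Poglut3, Fem1b and Pth, with differences of -1.01 (Pth) to -0.75 (Ndufaf8), and Reg3g.

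Reg3g, an antimicrobial lectin that epithelium secretes, had the largest negative difference of these 15. It read 3.22, 2.55 and 2.65 at day 7 and 5.46, 3.62 and 5.37 at day 1, a difference of -2.01 ± 0.44 that was -2.61 without the second day 1 replicate. Day 1 replicates 1 and 3 carried the signal, and the intact mean was 4.18 and the day 3 mean 3.14; Reg3g, like Serpina3n, lay above the intron limit on 2 of the 6 arrays. Serpina3n, a protease inhibitor of the acute phase, showed the same arrays high: it read 3.17, 2.95 and 3.17 at day 7 and 6.13, 3.35 and 6.17 at day 1, a difference of -2.12 ± 0.76 and of -3.05 without the second day 1 replicate. Saa3, the serum amyloid A made outside the liver, read 6.63, 8.21 and 7.88 at day 7 and 9.54, 7.23 and 9.89 at day 1; the difference was -1.31 ± 0.66, its second day 1 replicate overlapped day 7, and without that array it was -2.14. The acute phase list as a whole gave a median of -0.10, with 5 of 13 positive and 0 at an unadjusted p under 0.05. Without the second day 1 replicate its median was -0.19, and 3 genes were lower at that p (706 of all 22206 probe sets).

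Growth factors that take part in liver regeneration, as far as macrophages express them, gave small and mixed values. Of 27 measured 17 were positive, with a median of 0.09. At an unadjusted p under 0.05 4 were higher and 1 lower, against 3.81% and 2.93% of all probe sets. Vegfb read 4.11, 3.79 and 3.96 at day 7 and 3.22, 3.12 and 3.66 at day 1, Pdgfc read 5.98, 5.36 and 5.77 at day 7 and 5.36, 4.30 and 5.17 at day 1, and Tgfa read 3.12, 3.24 and 2.92 at day 7 and 2.57, 2.67 and 2.80 at day 1. Hgf, the hepatocyte growth factor, read 4.94, 4.84 and 4.43 at day 7 and 4.08, 2.99 and 4.63 at day 1, with overlap. Angpt1, an angiopoietin, was the one lower: 2.41, 2.82 and 2.24 at day 7 and 3.20, 3.84 and 3.68 at day 1. Of the list, 5 genes lay above the intron limit on at least 3 of the 6 arrays. Vegfb, Tgfa, Hgf and Angpt1 lay above it on 0 of the 6.

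Inflammatory cytokines gave no common direction. Il6 read 9.43, 7.17 and 7.48 at day 7 and 8.02, 5.20 and 8.51 at day 1, Tnf read 10.95, 10.91 and 10.68 at day 7 and 10.78, 10.36 and 11.14 at day 1, and Il1b read 10.34, 10.77 and 10.39 at day 7 and 10.24, 9.82 and 10.61 at day 1. All 3 overlapped, and Il6 and Tnf turned below 0 without the second day 1 replicate. Csf3, the factor G-CSF, read 2.43, 3.00 and 2.69 at day 7 and 3.17, 2.77 and 3.90 at day 1. Csf3 lay above the intron limit on 0 of the 6 arrays. The classical activation list had a median of 0.54, with 10 of 13 positive, and -0.11 without the second day 1 replicate, so its median rested on that array although Cd80 is one of its members. In the NF-kB list 15 of 17 were positive with a median of 0.33, and 0.04 without the second day 1 replicate; Birc3, an inhibitor of cell death, read 9.19, 9.68 and 9.53 at day 7 and 9.05, 8.69 and 9.17 at day 1, and the inhibitor Nfkbid read 8.86, 8.80 and 8.80 at day 7 and 8.60, 7.48 and 8.40 at day 1. Type I interferon genes had a median of 0.00, with 14 of 28 positive, and 0.34 with 23 positive without the dap arrays. The CXC chemokines had a median of -0.03, and of -0.54 with 0 of 11 positive without that array.

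The medians of antigen presentation and complement genes also moved with the arrays used. MHC class II genes had a median of 0.33 with 9 of 15 positive, 0.05 without the second day 1 replicate and 0.68 without the dap arrays; Ciita, their master activator, read 3.30, 3.01 and 3.54 at day 7 and 2.39, 2.66 and 2.87 at day 1. MHC class I genes had 0.25 over all arrays, -0.08 without the second day 1 replicate and 0.52 without the dap arrays. Complement genes had 0.26 over all arrays, 0.06 without the second day 1 replicate and 0.65 without the dap arrays, with C3ar1 given above, Cd59a, an inhibitor of the membrane attack complex, at 2.91, 2.63 and 2.47 at day 7 and 3.16, 3.80 and 3.44 at day 1, and Cd55, which speeds the decay of the convertases, at 2.78, 4.78 and 4.16 at day 7 and 2.32, 2.95 and 3.45 at day 1. Cd59a did not overlap, and Cd55 did, with the dap arrays highest. Ciita, Cd59a and Cd55 lay above the intron limit on 0 of the 6 arrays.

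Hormonal and daily regulators gave small medians. Clock genes had a median of -0.02 with 8 of 18 positive, and 0.15 with 11 positive without the dap arrays: Nr1d1, a repressor of the clock, read 4.74, 3.34 and 4.11 at day 7 and 4.47, 5.35 and 5.33 at day 1, Cry2 read 5.66, 4.85 and 4.76 at day 7 and 4.80, 3.66 and 4.60 at day 1, Dbp read 5.58, 4.54 and 5.21 at day 7 and 4.44, 4.43 and 4.61 at day 1, and Per1 read 7.39, 6.05 and 6.56 at day 7 and 6.32, 6.68 and 6.73 at day 1. The hour of sampling is not in the labels used here. Genes of the glucocorticoid response had a median of 0.15 with 12 of 17 positive, and 0.06 with 9 positive without the second day 1 replicate; Fkbp5, a chaperone induced by these hormones, read 7.48, 7.72 and 8.17 at day 7 and 8.69, 9.33 and 7.94 at day 1, and Zbtb16 read 4.92, 5.29 and 5.09 at day 7 and 4.96, 3.80 and 4.47 at day 1. Fkbp5 and Zbtb16 thus lay on opposite sides, and both overlapped. Iron genes had a median of -0.09 with 9 of 19 positive, and -0.15 with 5 positive without the second day 1 replicate, and the iron exporter Slc40a1 read 5.82, 5.04 and 5.79 at day 7 and 5.70, 5.23 and 5.65 at day 1. In the lists of oxidative stress and hypoxia, Cat, the catalase, read 9.36, 9.14 and 9.35 at day 7 and 8.70, 8.19 and 9.11 at day 1, without overlap, and Adm, adrenomedullin, read 2.73, 3.30 and 2.97 at day 7 and 3.81, 3.26 and 4.11 at day 1, with overlap. Zbtb16 and Adm lay above the intron limit on 0 of the 6 arrays.

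Marker genes of other blood cells differed in how bright they were. Above the intron limit on at least 3 of the 6 arrays lay 22 of 31 neutrophil genes. The same held for 2 of 21 T and NK cell genes and 1 of 9 platelet genes. The neutrophil list had 27 of 31 positive with a median of 0.29, and 18 of 31 with 0.08 without the second day 1 replicate; it averaged 7.12, 7.22 and 6.73 at day 7 and 6.97, 6.14 and 7.01 at day 1, against 5.97 to 6.19 in intact mice. S100a8, an abundant neutrophil alarmin, read 9.88, 10.29 and 9.28 at day 7 and 10.34, 8.70 and 10.04 at day 1, and S100a9 read 9.59, 10.26 and 9.27 at day 7 and 9.89, 8.75 and 9.75 at day 1. Both overlapped, whereas the chemokine receptor gene Cxcr2 read 7.81, 8.07 and 7.47 at day 7 and 7.01, 7.16 and 7.14 at day 1 and did not. In the T and NK list 9 of 21 were positive; Cd2 read 7.27, 6.81 and 6.64 at day 7 and 5.77, 5.08 and 6.31 at day 1, and Cd8a read 2.97, 2.71 and 2.72 at day 7 and 3.86, 3.32 and 3.12 at day 1, so 2 genes of the same cells lay apart in opposite directions. Clec1b, a platelet receptor, read 4.52, 4.78 and 3.94 at day 7 and 3.46, 2.50 and 3.59 at day 1. Cd8a and Clec1b lay above the intron limit on 0 of the 6 arrays, and Cd2 on 5.

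Airway epithelium was the cell type list with the lowest median, -0.29, with 5 of 14 positive, and it was -0.21 without the second day 1 replicate and -0.23 without the dap arrays. Bpifa1, a secreted protein of the airways, read 5.51, 4.87 and 4.80 at day 7 and 6.10, 6.82 and 5.78 at day 1, without overlap, and Scgb1a1, the club cell secretoglobin, read 9.15, 8.45 and 8.32 at day 7 and 9.10, 9.87 and 9.76 at day 1, with overlap at the first replicates. The list averaged 4.67, 4.27 and 4.35 at day 7 and 4.76, 4.46 and 4.75 at day 1. Type 2 alveolar cells had a median of 0.16, and -0.38 with 3 of 14 positive without the second day 1 replicate; their surfactant gene Sftpc read 9.15, 9.96 and 8.95 at day 7 and 9.54, 6.28 and 10.31 at day 1, so a single array set its sign. Sftpd, at 2.59, 2.54 and 2.49 at day 7 and 2.93, 3.30 and 3.05 at day 1, did not overlap, and Lpcat1, which makes surfactant lipid, read 5.19, 5.37 and 4.97 at day 7 and 4.26, 3.89 and 5.09 at day 1. Of the 6 arrays, Sftpd lay above the intron limit on 0 and Lpcat1 on 1. Endothelial markers had a median of 0.22, and -0.33 with 2 of 17 positive without that array. The part of lung tissue RNA in the values of Reg3g and Saa3, which epithelium can make, was not tested.

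Among the 47 lists, 36 had a median above 0 over all arrays and 21 without the second day 1 replicate; 19 changed sign, 17 of them to below 0. Housekeeping groups were among these, with ribosomal protein genes at 0.08 over all arrays and -0.17 without it (5 of 39 positive), and respiratory chain genes at 0.07 and -0.27 (6 of 40 positive). The cell cycle, histone and immediate early lists kept positive medians of 0.42, 0.41 and 0.17 in the same setting, in which the median of most lists lay lower. Eosinophil and dendritic cell markers had medians of 0.35 and 0.18 there, both above that of the immediate early list.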

How the data were processed

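RNA of Siglec-F sorted alveolar macrophages from 12 arrays in 4 groups of 3 was used; groups came from the sample titles. Each deposited value is the log2 signal of 1 probe set; the submitters' processing notes name the Transcriptome Analysis Console and RMA, without versions, as what the authors used; the array annotation's genome build is not given in the sources used here. RMA sets all arrays to 1 distribution, so a shift common to all genes is removed, and the number of arrays limits the precision.

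Values were used as deposited. Of 28846 probe sets, 6640 controls were left out (1324 exon and 5222 intron controls served to describe the arrays), and 22206 were tested; 19572 had 1 gene symbol in the platform annotation, and 2634 none. One linear model over all 12 arrays, with the group as its term, was fitted (limma 3.58.1, R 4.3.3); tests are two-sided, with Benjamini-Hochberg adjustment over 22206 probe sets. The step was tested on simulated data: it recovered 50% of changes of 1 on the log2 scale, 96% of 2 and 100% of 3 or more, with 15 false among 188 calls. The simulated noise was independent between genes and arrays, with no array standing apart. These data do not have that form, so the rates may not hold for them. Lists (47, with 860 of 944 entries measured) used 1 probe set per gene, of 19505 genes, whose median difference was 0.000743.

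Genes named are the 15 higher and 15 lower with the smallest p among those whose groups do not overlap and with an annotated single symbol, leaving out predicted genes, olfactory, vomeronasal and taste receptors, antigen receptor segments and small RNA genes; members of the lists with the smallest p, up to 3 each, of which the text gives those of the groups it describes; and 20 fixed genes. Members and lists were chosen with earlier results of these data known. Ccnb2, Mki67, Aurkb, Birc5, H3c14, H3c15, H2ac4, Cdk1, Nr4a3, Nr4a2, Fos, Myc, Egr1, Elovl6, Angpt1, Alox15, Prg2, Prg3, Ear6, Epx, Serpina3n and Gpr65 were named after their values were seen. Promoter windows are those of RefSeq, GRCm38.p6 (32851 windows of 27025 genes). Alternatives were other scalings, a filter on dim probe sets, arrays left out, array weights, dap as a term and the replicate number as a block.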

Additional observations from a re-analysis of the deposited data

Results flagged for a closer look

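The labelling control dap, an added bacterial transcript outside the gene measurements, read 7.77 on the second and 6.47 on the third day 7 replicate, where the highest intact array read 2.40. Related controls were highest on the second day 7 replicate, phe at 5.47 (highest intact array 2.42) and thr at 5.73 (2.41); the third day 7 replicate read 3.80 and 4.22 and the first day 3 replicate 4.22 and 3.64 for phe and thr. The hybridisation control bioB read 10.29 on the second day 1 replicate, where the highest intact array read 7.72. The part of these arrays in the day 7 and day 1 values was not tested beyond the fits without them.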

How the results depend on the processing

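No probe set was called in any of 24 alternatives. At an adjusted p under 0.10, 1 probe set was reached in each of 4: Serpina3n (-2.98, 0.063) without the 3 arrays of weakest control separation, Ccr3 (3.56, 0.0872) without the first day 7 replicate, Reg3g (-2.61, 0.0544) without the second day 1 replicate and Gpr65 (1.58, 0.0523) without the third. At an unadjusted p under 0.05 the main fit had 846 higher and 651 lower (56.5% higher). The replicate number as a block gave 851 and 605, with a smallest adjusted p of 0.558; the deviations of same-numbered arrays correlated at 0.223, 0.258 and -0.102, so the numbers were not taken as pairs. The share of higher differences was 84.1% after the filter on dim probe sets and 45.7% with that filter and without the second day 1 replicate, an alternative chosen after seeing the data; it was 44.9% without that array alone, 53.5% after quantile normalization, 61.9% after centring, 66.5% with dap as a term and 66.7% without the dap arrays. Quantile and centring counts are relative to RMA values, which are already normalized.

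Genes whose day 7 and day 1 arrays do not overlap cannot change sign when arrays are left out. Of 2541 values of 108 named genes under alternatives 53 changed sign, in 16 genes, and 92 genes had no change of sign. Without both second replicates, and equally without the 3 weakly separating arrays, these were Prg2 -0.38, Epx -0.83, Pparg 0.061, Mrc1 0.079, Sftpc -0.88, S100a8 -0.61, S100a9 -0.40, Tnf -0.14 and Il1b -0.062. With array weights they were Epx -0.35, Mrc1 0.13, Sftpc -0.52, S100a8 -0.52, S100a9 -0.26, Il6 -0.23 and Tnf -0.16. Without the dap arrays they were Cd55 -0.12, Alox15 -0.11, Prg2 -0.23, Ear6 0.024 and Epx -0.34, and with dap as a term Ear6 0.11. After quantile normalization they were S100a8 -0.00322, Slc40a1 -0.11 and Per1 -0.026. Without the second day 1 replicate they were Epx -0.22, Mrc1 0.065, Sftpc -0.57, S100a8 -0.38, S100a9 -0.12, Il6 -0.24, Tnf -0.11 and Slc40a1 -0.12, and without the first one Prg3 -0.043 and Per1 -0.037. Without the second day 7 replicate they were Prg2 -0.017, Epx -0.20, S100a8 -0.12 and S100a9 -0.039, without the first Mrc1 0.039, Slc40a1 -0.11 and Per1 -0.27, and without the third Ear6 0.040 and Slc40a1 -0.095. The causes were not tested. Leaving out 1 replicate at a time, the other end of the range was 1.04 for Prg2, -0.49 for Ear6, 0.35 for Prg3, 0.78 for Epx, -0.13 for Mrc1, 1.44 for Sftpc, 0.44 for S100a8, 0.46 for S100a9, 1.41 for Il6, 0.28 for Tnf, 0.28 for Slc40a1 and 0.40 for Per1.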
